A study of Mus musculus with 9 samples.

Results

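Costimulatory receptors of the tumour necrosis factor (TNF) receptor family were examined in T cells from mouse tumours. The members were chosen by name: Tnfrsf4 (OX40), Tnfrsf9 (CD137), Tnfrsf18 (GITR), Tnfrsf1b (TNFR2), Tnfrsf25 (DR3) and Cd27, 6 of the 45808 genes counted. The 9 libraries each came from tumour-infiltrating CD4 T cells positive for the activation receptor ICOS, taken from 1 C57BL/6J mouse 12 days after injection of MC38 colon adenocarcinoma cells. The arms were labelled Control, anti-CTLA-4 and anti-PD-1, with 3 mice in each, and they share the strain, the tumour line, the day and the sort. The labels used here do not state the control treatment, the antibody doses or the age of the mice. Separate mice were sampled, so the spread between libraries holds differences between mice and those from amplifying little RNA.

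Receptors of this family bind trimeric TNF-like ligands carried mostly by antigen-presenting cells and activated lymphocytes. Ligand binding recruits TRAF adaptors to the receptor tail, which activates NF-kappaB and supports survival and division of the T cell. Regulatory T cells, the Foxp3-dependent suppressor lineage, are known to carry OX40, CD137, GITR and TNFR2 at high levels inside tumours, and antibodies to several of these receptors have been tried beside checkpoint blockade.

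Gene counts summed to 25530333 to 41508589 per library, and levels are given as CPM, the count per 1000000 gene counts of the library. A count of 3 equals 0.0723 to 0.118 CPM, the upper limit taken for a gene at 0, which covers counting error only. The label of the sorted cells was checked against 11 CD4 T cell markers, whose summed level was 9244 to 12406 CPM in 8 libraries. Anti-CTLA-4 replicate 2 stood apart at 3169 CPM, with Cd4 at 24.5 CPM and Cd3e, a chain of the T cell receptor complex, at 0.590 CPM. Not every marker was low there, and 9 of the 11 reached 5 CPM. Cd3d and Cd3g, other chains of that complex, were at their highest of the 9 libraries, 696 and 649 CPM. That library also held 13 macrophage and monocyte markers at a sum of 4995 CPM, against 187 to 853 CPM in the others, with Lyz2 at 1492 CPM and Tyrobp at 1874 CPM. The higher sum was not a rise of every marker. Only 8 of the 13 reached 5 CPM there and 1 was at 0 counts, while 9 reached 5 CPM in Control replicate 1 and in anti-CTLA-4 replicate 1. A sum of 6 fibroblast markers was 1597 CPM there and 31.4 to 378 CPM in the others. Foxp3 stood at 898 CPM in that library and at 2362 to 3901 CPM in the others. The part of cells other than T cells in the receptor levels of that library was not tested. Genes at 5 CPM or more numbered 2662 there. Control replicates had 6258, 6309 and 6051 such genes, anti-CTLA-4 replicates 1 and 3 had 5382 and 5124, and anti-PD-1 replicates 5496, 4209 and 5878. Every library of the antibody groups was thus below every Control library, and the part of this in differences between groups was not tested. In these bulk samples, fewer cells of a type and less RNA per cell cannot be told apart.

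All members but Tnfrsf25 held at least 31.7 CPM in 8 libraries or more, and the exceptions were Tnfrsf9 (0.534 CPM) and Cd27 (5.23 CPM) in anti-CTLA-4 replicate 2. Per kilobase of merged exons, the scale on which genes can be compared, Tnfrsf4 averaged 382 CPM per kb over the 9 libraries, Tnfrsf18 184, Tnfrsf9 184, Cd27 124, Tnfrsf1b 88.5 and Tnfrsf25 2.14. Tnfrsf4 was the highest member in 6 libraries and Tnfrsf18 in the other 3, which were Control replicate 1 and anti-CTLA-4 replicates 1 and 2. Tnfrsf25 was the lowest in all 9. The ranges of the other 5 overlapped over the libraries, which does not show that receptors were alike within a library. Tnfrsf4 was above Tnfrsf9 in every library, most narrowly in Control replicate 1 (163 against 162 CPM per kb). The order of the receptors was not tested. The ranges were 60.2 to 631 CPM per kb for Tnfrsf4, 20.8 to 424 for Tnfrsf18, 0.196 to 333 for Tnfrsf9, 2.25 to 317 for Cd27 and 41.0 to 169 for Tnfrsf1b. Summed over the members, the level was 328 CPM per kb in anti-CTLA-4 replicate 2 and 655 to 1315 CPM per kb elsewhere.

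**Figure D1:**
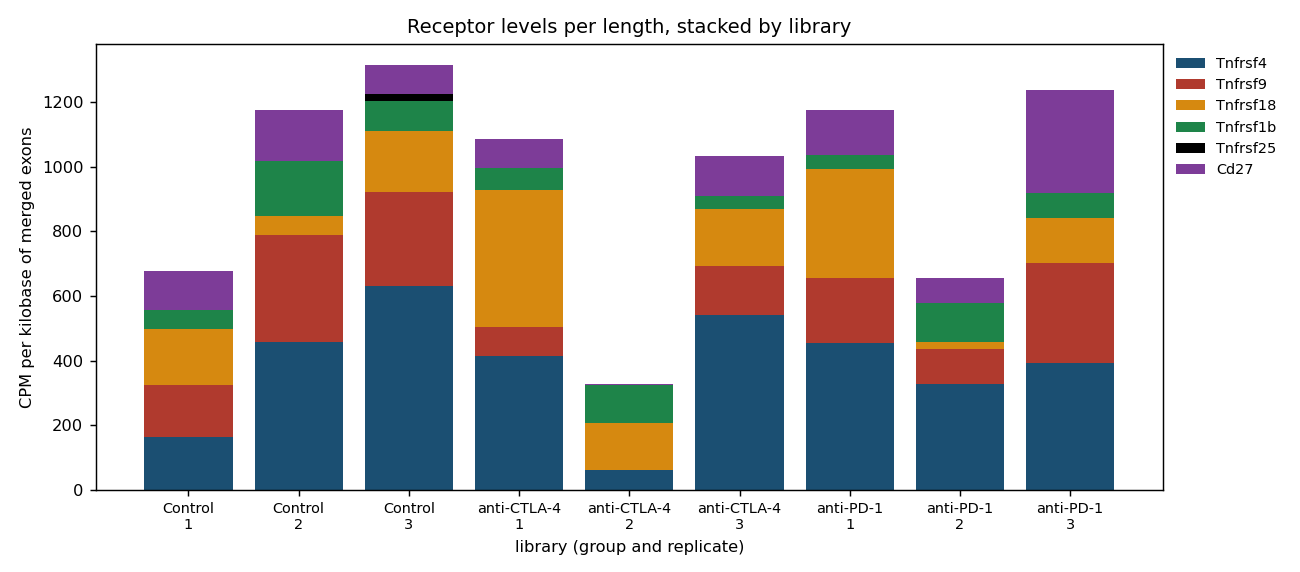
Stacked bars give the level of each receptor in CPM per kilobase of merged exons for the 9 libraries, labelled by group and replicate. The lowest total, 328 CPM per kb, belongs to anti-CTLA-4 replicate 2, where Tnfrsf9 and Cd27 are nearly missing and Tnfrsf1b makes up 36.0% of the total.

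Of the 6 members, 5 passed the filter on low counts and were tested, and none passed the test between any groups. The quasi-likelihood test of edgeR, adjusted by Benjamini-Hochberg over 7858 genes, called 0 of 5 for anti-CTLA-4 against Control, where 0.369% of all tested genes passed. It called 0 of 5 for anti-PD-1 against Control (0.0764% of all genes) and 0 of 5 for anti-CTLA-4 against anti-PD-1 (0.827% of all genes). In a single test for any difference among the 3 groups it again called 0 of 5, where 1.53% of all genes passed. No tested member had an unadjusted p under 0.05 in these tests, which 11.3%, 6.01% and 14.1% of all genes had in the 3 comparisons and 8.97% in the joint test. Neither limma voom nor DESeq2 called a member, but DESeq2 gave no p for Tnfrsf1b. Its unadjusted p for Tnfrsf18 was 0.0187 for anti-CTLA-4 against Control (adjusted p = 0.121), 0.044 between the antibodies (adjusted p = 0.189) and 0.0347 in the joint test (adjusted p = 0.251). With library totals only, edgeR gave Tnfrsf9 an unadjusted p of 0.0272 for anti-CTLA-4 against Control (adjusted p = 0.55). In CPM, 1 of 5 members had groups that did not overlap for anti-CTLA-4 against Control and 0 of 5 in the other comparisons, beside 11.9%, 10.8% and 9.76% of all genes. The fitted log2 fold change was positive for 3, 3 and 2 of the 5 members, beside 50.2%, 52.4% and 49.1% of all genes, with medians of 0.020, 0.14 and -0.12 beside 0.0077, 0.074 and -0.049. Standard errors ran from 0.95 to 1.32, so a p that missed the threshold does not show that groups were alike.

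**Figure D2:**
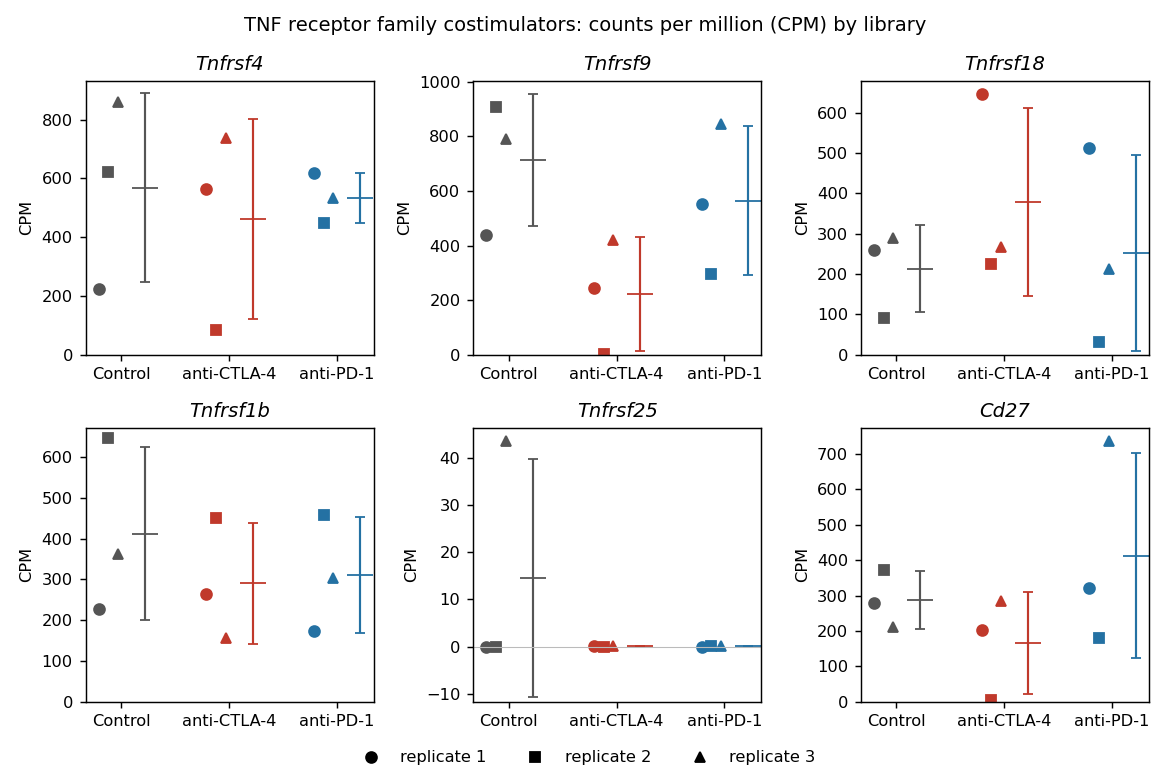
Each panel shows 1 receptor, with CPM on a linear axis, one point per library with the replicate number as its shape, and a horizontal line with bars for the mean ± SD of 3 mice. Tnfrsf9 is the panel in which all anti-CTLA-4 points (0.534 to 419 CPM) lie below all Control points (440 to 907 CPM).

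Tnfrsf9 encodes CD137, a receptor induced on T cells after antigen recognition. Its gene lies on GRCm38 chromosome 4 at 150914562 to 150946102 on the plus strand (ENSMUSG00000028965). Control replicates 1, 2 and 3 held 440, 907 and 791 CPM, the anti-CTLA-4 replicates 245, 0.534 and 419 CPM, and the anti-PD-1 replicates 552, 297 and 845 CPM. Every anti-CTLA-4 library was below every Control library, while the anti-PD-1 libraries overlapped both other groups. The closest pair was anti-CTLA-4 replicate 3 and Control replicate 1.

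Group means of Tnfrsf9 ran from 713 ± 243 CPM in Control through 565 ± 274 CPM under anti-PD-1 to 221 ± 210 CPM with anti-CTLA-4 (SD, n = 3). The fitted log2 fold change for anti-CTLA-4 against Control was -1.50 (SE 1.02, adjusted p = 0.617), and it was -0.90 without anti-CTLA-4 replicate 2 (adjusted p = 0.657). Against anti-PD-1 it was -1.34 (SE 1.02, adjusted p = 0.638), and anti-PD-1 differed from Control by -0.16 with an adjusted p of 1. Of the tested genes, 10.4% had all anti-CTLA-4 libraries below all Control libraries in CPM, a background against which 1 of 5 members is read. The same separation was seen for 5 of 10 regulatory T cell markers, Il2ra, Ikzf2, Tigit, Ccr8 and Klrg1, but not for Foxp3. It was also seen for 2 of 11 CD4 T cell markers, Cd247 and Cd2, so it was not particular to Tnfrsf9. With TMM factors, which rescale each library by its typical gene, the groups overlapped, at 218, 1.33 and 395 CPM against 373, 720 and 642 CPM, while 8.23% of all genes were separated in that direction.

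Because Foxp3 marks the regulatory T cells among the sorted cells, Tnfrsf9 was also set against it within each library, a scale chosen after seeing the data. Per 100 Foxp3 counts, Control replicates held 18.6, 33.3 and 24.5 Tnfrsf9 counts, anti-CTLA-4 replicates 8.10, 0.0595 and 14.6, and anti-PD-1 replicates 17.3, 10.5 and 21.7. The anti-CTLA-4 and Control groups again did not overlap, which held for 9.49% of all tested genes in that direction. The 19 counts of Tnfrsf9 in anti-CTLA-4 replicate 2 stand beside 31942 counts of Foxp3 in the same library.

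The region around the second RefSeq start site of Tnfrsf9 is shown because it is the member whose CPM separated 2 groups and the one whose window holds matches to both motifs searched, NF-kappaB and AP-1. Tnfrsf18, whose pattern over libraries was furthest from that of Tnfrsf9, is shown for contrast. Both windows run 5′ to 3′ on the plus strand of GRCm38.p6 from 250 bases before to 50 after the start site, with motif matches in capitals, at chr4:150927749-150928048 and chr4:156026072-156026371.
Tnfrsf9: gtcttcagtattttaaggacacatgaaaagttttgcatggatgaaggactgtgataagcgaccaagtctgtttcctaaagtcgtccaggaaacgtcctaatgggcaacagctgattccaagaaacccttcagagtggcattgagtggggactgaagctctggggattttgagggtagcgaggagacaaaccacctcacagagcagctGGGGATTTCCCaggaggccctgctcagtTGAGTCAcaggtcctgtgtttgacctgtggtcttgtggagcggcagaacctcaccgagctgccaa
Tnfrsf18: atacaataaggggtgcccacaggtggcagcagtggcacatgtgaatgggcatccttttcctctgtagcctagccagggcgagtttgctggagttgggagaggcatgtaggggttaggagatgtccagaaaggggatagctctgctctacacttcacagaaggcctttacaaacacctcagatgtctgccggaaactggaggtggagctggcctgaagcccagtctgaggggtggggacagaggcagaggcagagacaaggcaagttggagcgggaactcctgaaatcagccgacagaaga
All 6 members matched the RefSeq promoter table, with 8 windows in all. The NF-kappaB consensus, searched on both strands in its usual degenerate form, was found in 8.459% of 32851 windows of the same length, and among the members in 1 window each of Tnfrsf9 and Tnfrsf25. In Tnfrsf9 overlapping matches began 43 and 42 bases before the start site. The AP-1 motif TGANTCA, in 7.808% of all windows, was found among the members only in Tnfrsf9, starting 15 bases before the start site and not overlapping the other matches. These are matches of letters and no binding was measured.

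Cd27, a receptor of resting and recently activated T cells that is lost on late effector cells, lies on chromosome 6 at 125232622 to 125237010 on the minus strand (ENSMUSG00000030336). Control replicates held 279, 372 and 210 CPM, anti-CTLA-4 replicates 204, 5.23 and 286 CPM, and anti-PD-1 replicates 322, 180 and 737 CPM. Anti-CTLA-4 replicate 2 was far below the other libraries and anti-PD-1 replicate 3 above them, and all 3 groups overlapped. Means were 413 ± 289 CPM under anti-PD-1, 287 ± 81.1 CPM in Control and 165 ± 144 CPM under anti-CTLA-4 (SD, n = 3), and the libraries of neighbours in this order overlapped. The fitted log2 fold changes were 0.67 for anti-PD-1 against Control (SE 1.30), -0.60 for anti-CTLA-4 against Control (SE 1.30) and -1.27 between the antibodies (SE 1.32), with adjusted p of 1, 1 and 0.846. Anti-PD-1 replicate 3 is also the library with 125 CPM of Cd8b1, a CD8 T cell gene, while Cd8a was at 0 counts in every library. The part of such cells in the Cd27 level was not tested.

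Tnfrsf4 and Tnfrsf18 are neighbours on chromosome 4, at 156013843 to 156016612 (ENSMUSG00000029075) and 156026164 to 156028895 (ENSMUSG00000041954), both on the plus strand and 9551 bases apart. Tnfrsf1b (145213463 to 145246870, minus strand, ENSMUSG00000028599), Tnfrsf9 and Tnfrsf25 (152115934 to 152120119, plus strand, ENSMUSG00000024793) lie on the same chromosome, so 5 of the 6 members share it. The likeness of patterns over the libraries was measured by the root mean square difference of centred log2 CPM with TMM factors. For Tnfrsf4 and Tnfrsf18 it was 1.53, and over the 10 pairs of tested members it ran from 1.24 for Tnfrsf4 with Cd27 to 3.42 for Tnfrsf9 with Tnfrsf18. Without anti-CTLA-4 replicate 2 the most alike pair was Tnfrsf9 with Cd27, at 0.53, and the least alike Tnfrsf18 with Tnfrsf1b, at 1.81.

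Tnfrsf4 encodes OX40, which sustains the survival of activated T cells. Control replicates held 223, 623 and 861 CPM, anti-CTLA-4 replicates 565, 82.2 and 738 CPM, and anti-PD-1 replicates 620, 447.001 and 534 CPM. All groups overlapped, and the 3 anti-PD-1 libraries lay inside the range of the Control libraries. Means were 569 ± 322, 462 ± 340 and 534 ± 86.4 CPM in the order Control, anti-CTLA-4 and anti-PD-1 (SD, n = 3). The fitted log2 fold changes were 0.020 for anti-CTLA-4 against Control (SE 0.95), 0.14 for anti-PD-1 against Control (SE 0.95) and -0.12 between the antibodies (SE 0.95), each with an adjusted p of 1. The sign for anti-CTLA-4 against Control turned to -0.30 when only library totals were used. With TMM factors the SD of Tnfrsf4 in log2 CPM over the 9 libraries was 0.69, the smallest of the tested members, and 90.0% of the 1905 genes averaging at least 100 CPM had a larger one. Without the factors that order turned, with a highest over lowest library of 10.5-fold for Tnfrsf4 and 4.13-fold for Tnfrsf1b.

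Tnfrsf18 encodes GITR, whose engagement is known to weaken suppression by regulatory T cells. Control replicates held 260, 90.3 and 288 CPM, anti-CTLA-4 replicates 646, 224 and 266 CPM, and anti-PD-1 replicates 511, 31.7 and 212 CPM. The groups overlapped in CPM, with the highest library under anti-CTLA-4 and the lowest under anti-PD-1. Means were 379 ± 233 CPM under anti-CTLA-4, 252 ± 242 CPM under anti-PD-1 and 213 ± 107 CPM in Control (SD, n = 3), and neighbours in this order differed by less than their SD. The fitted log2 fold change was 1.39 for anti-CTLA-4 against Control (SE 1.25, adjusted p = 0.852), 1.07 between the antibodies (SE 1.24, adjusted p = 0.896) and 0.32 for anti-PD-1 against Control (SE 1.23, adjusted p = 1).

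Scaling moved the Tnfrsf18 comparison. With TMM factors, anti-CTLA-4 replicates stood at 574, 557 and 251 CPM and Control replicates at 221, 71.8 and 234 CPM, without overlap, as did 3.12% of all tested genes in that direction. Anti-CTLA-4 replicate 2 has a TMM factor of 0.403, the lowest of the 9, which raises its value. Without that library the groups did not overlap on this scale either. Per 100 Foxp3 counts the groups overlapped, at 21.3, 25.0 and 9.28 against 11.03, 3.31 and 8.93. The fitted change was 0.83 with library totals only and 3.49 with RLE factors, where the median of all tested genes moved by -0.35 and 0.56.

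Tnfrsf1b encodes TNFR2, the TNF receptor that supports expansion of regulatory T cells. Control replicates held 228, 646 and 363 CPM, anti-CTLA-4 replicates 264, 449.7 and 156 CPM, and anti-PD-1 replicates 173, 457.7 and 304 CPM. The libraries of the 3 groups were interleaved, and anti-CTLA-4 replicate 2 was not low for this receptor. Means were 412 ± 213 CPM in Control, 312 ± 142 CPM with anti-PD-1 and 290 ± 148 CPM with anti-CTLA-4 (SD, n = 3). The fitted log2 fold changes were 0.58 (SE 1.07) for anti-CTLA-4 against Control, -0.065 (SE 1.06) for anti-PD-1 against Control and 0.65 (SE 1.07) between the antibodies, with adjusted p of 1, 1 and 0.964. The first of these became -0.80 without anti-CTLA-4 replicate 2 and -0.51 with library totals only, the direction of the CPM means, and it was 3.37 with RLE factors (adjusted p = 0.429) and in DESeq2. Between the antibodies RLE factors gave 3.20 (adjusted p = 0.427). Monocytes and macrophages are known to express Tnfrsf1b too, and that library had the highest sum of their markers, as given above. Their part in its Tnfrsf1b level was not tested. In CPM Tnfrsf1b ranged from 156 to 646 over the 9 libraries, and with TMM factors from 148 to 1117. In CPM, 3.17% of tested genes reached 150 in all 9 libraries as it did.

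Tnfrsf25 encodes DR3, a receptor with a death domain that expands regulatory T cells when bound by TL1A. It had 1563 counts in Control replicate 3, or 43.7 CPM, and 0 or 1 count in each of the other 8 libraries. It did not pass the filter on low counts and no fold change is given. Its level thus rests on a single library, and the other Control mice had 0 counts.

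**Figure D3:**
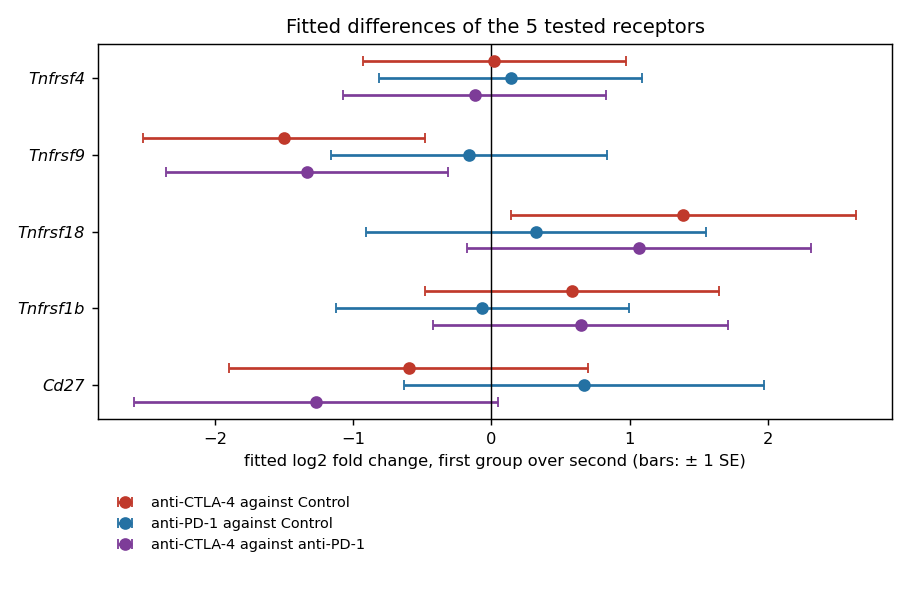
Points are fitted log2 fold changes of the 5 tested receptors with bars of ± 1 SE, in 3 comparisons, the first group over the second. Tnfrsf9 lies furthest to the left and Tnfrsf18 furthest to the right for anti-CTLA-4 against Control, at -1.50 and 1.39, and none passed the threshold.

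Of the 7 ligand genes of these receptors, 3 were not detected. Tnfsf4, Tnfsf18 and Cd70, which encode the ligands of OX40, GITR and CD27, had 0 counts in all 9 libraries. Tnfsf15, which encodes TL1A, reached at most 0.515 CPM. Tnfsf9, the CD137 ligand, stood at 59.2 CPM in Control replicate 2 and 83.3 CPM in anti-PD-1 replicate 3, and at or below 1.83 CPM in the other 7 libraries. Tnfsf9, Tnf and Lta were tested, and none passed in any comparison.

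Of the 3 tested ligands of these receptors, Tnf, which encodes a ligand of TNFR2, was the one whose libraries separated. Control replicates held 31.1, 107 and 58.7 CPM, anti-CTLA-4 replicates 43.3, 0.0281 and 10.8 CPM, and anti-PD-1 replicates 0.0392, 0.0906 and 0.351 CPM. All anti-PD-1 libraries were below all Control libraries, as for 7.33% of all tested genes, and anti-CTLA-4 replicate 2 was as low as they were. The difference between anti-PD-1 and Control did not pass (unadjusted p = 0.055, adjusted p = 0.839, edgeR's quasi-likelihood test). Lta, another ligand of TNFR2, varied within every group, from 0.0322 to 97.2 CPM in Control, 0.0562 to 148 CPM with anti-CTLA-4 and 0.0292 to 238 CPM with anti-PD-1.

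The remaining 22 receptors of the superfamily were mostly low. None of the 9 that were tested passed in any comparison, and 6 had 0 counts in all libraries. Fas, the death receptor, was highest in anti-CTLA-4 replicate 2 at 701 CPM and ranged from 0.131 to 167 CPM elsewhere. Tnfrsf22, a decoy-type receptor, and Tnfrsf13b (TACI) averaged 56.2 and 50.2 CPM over the 9 libraries. Of 10 other ligands 6 were tested and none passed, with Ltb, Tnfsf10 (TRAIL) and Tnfsf11 (RANKL) the highest at means of 153, 84.1 and 70.3 CPM.

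Below the receptors, the adaptor Traf1 was also lowest in anti-CTLA-4 replicate 2. It held 251, 444.5 and 541 CPM in Control, 602, 1.83 and 734 CPM with anti-CTLA-4 and 311, 182 and 469 CPM with anti-PD-1. The ubiquitin ligases Birc2 and Traf6 averaged 101 and 93.2 CPM. None of 8 tested adaptors and ligases passed. The median fitted log2 fold change of the list was -0.72 for anti-CTLA-4 and -0.65 for anti-PD-1 against Control, beside 0.0077 and 0.074 over all tested genes. Between the antibodies it was 0.12, beside -0.049. Standard errors of these genes ran from 1.12 (Traf1) to 3.96 (Traf3), so the medians were small beside the error of each gene.

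Among the NF-kappaB kinases and subunits, Rel, a subunit prominent in T cells, ranged from 248 to 1308 CPM, Ikbkb, a kinase of the NF-kappaB inhibitors, from 82.1 to 832 CPM, and Nfkb1 from 3.23 to 762 CPM, lowest in anti-CTLA-4 replicate 2. None of the 9 tested genes of this list passed in the pairwise comparisons, and 1 of 9, Chuk, passed in the joint test among the 3 groups (adjusted p = 0.0241, edgeR's quasi-likelihood test).

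Chuk encodes IKK-alpha, a kinase of the inhibitors and precursors of NF-kappaB. Control replicates held 1.11, 57.0 and 0.112 CPM, anti-CTLA-4 replicates 77.4, 726 and 51.5 CPM, and anti-PD-1 replicates 48.2, 0.0302 and 60.2 CPM. The groups overlapped, with anti-CTLA-4 replicate 2 far above the rest. For Chuk the fitted log2 fold change was 5.37 for anti-CTLA-4 against Control (SE 1.65, adjusted p = 0.145), 4.37 between the antibodies (SE 1.57, adjusted p = 0.233) and 1.001 for anti-PD-1 against Control (SE 1.38, adjusted p = 1). Without anti-CTLA-4 replicate 2 the joint test gave an adjusted p of 1. It passed in 4 of the 16 alternatives that gave an adjusted p, with values from 0.00872 to 1. The call was also lost without Control replicate 1 (0.253), Control replicate 3 (0.264) or anti-PD-1 replicate 1, 2 or 3 (0.107, 0.0622 and 0.0882).

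Of 15 feedback and survival targets 14 were tested and none passed. Among them Tnfaip3, which encodes the deubiquitinase A20, stayed within 615 and 1385 CPM, the survival gene Mcl1 within 404 and 2037 CPM and the caspase inhibitor Cflar within 64.2 and 524 CPM. Across all 75 ligand, receptor and signalling genes listed, 49 were tested and 6, 1 and 6 had an unadjusted p under 0.05 for anti-CTLA-4 against Control, anti-PD-1 against Control and between the antibodies. Those shares, 12.2%, 2.0% and 12.2%, stand beside 11.3%, 6.01% and 14.1% of all tested genes. In the joint test 4 of 49 (8.2%) had an unadjusted p under 0.05, beside 8.97% of all tested genes, and 1 of 49, Chuk, passed after adjustment, beside 1.53%.

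**Figure D4:**
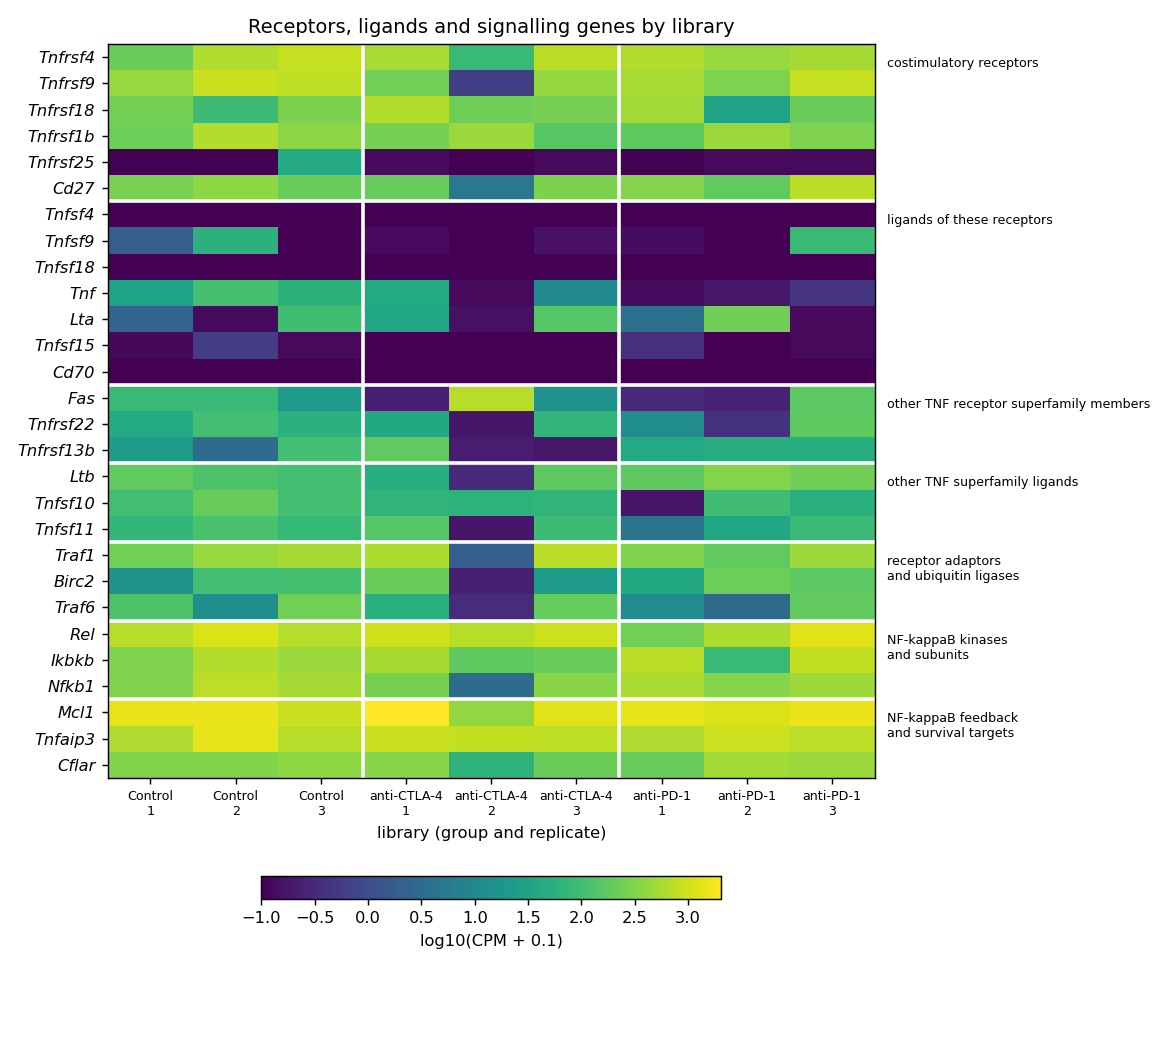
Colour gives log10(CPM + 0.1) of the receptors, their ligands and the 3 most abundant tested genes of each further list (rows) in the 9 libraries (columns). Receptors other than Tnfrsf25 are bright except for Tnfrsf9 and Cd27 in anti-CTLA-4 replicate 2, Tnfsf4, Tnfsf18 and Cd70 are at 0 throughout, and Tnf is dark in all 3 anti-PD-1 libraries.

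Genes whose pattern was most like that of each receptor were sought among 7032 others averaging at least 5 CPM, by the same root mean square difference over the 9 libraries. For Tnfrsf9 they were Gimap8 (0.33), Lrba (0.43) and Sla (0.44), each of which was under 2 CPM in its lowest library, and for Cd27 M6pr (0.36), Mrgpre (0.46) and Klf6 (0.50). For Tnfrsf4 they were Ms4a6b (0.40), Ets1 (0.41) and Mif4gd (0.43). For Tnfrsf1b they were Strn3 (0.39), B2m (0.42) and Kmt2c (0.44). For Tnfrsf18 the nearest were Dync1h1 (0.72), Eea1 (0.73) and Il2rb (0.76), further away than for any other member, where the median difference over all genes was 3.58 to 3.94 depending on the member. The search was not repeated without anti-CTLA-4 replicate 2, in which Tnfrsf9 and Cd27 were far below their other libraries. The nearest genes of these receptors may therefore rest largely on that library.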

How the data were processed

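RNA of sorted cells from 9 mice was amplified with a single-cell kit and sequenced as read pairs, per the labels' protocols. The authors deposited raw counts per gene symbol with no normalization, and per the submitters' processing notes the tools were TopHat2, HTSeq and DESeq2 on GRCm38, with versions, annotation and strand setting not given in the sources used here. HTSeq summary entries, which name no gene, were left out. Of a library's counts, genes made up 32.9% to 40.7%, alignments outside features 27.1% to 42.0%, ambiguous ones 0.631% to 1.13% and multiply aligned ones 24.3% to 31.1%. Tnfrsf18 shares 27.2% of its exon bases with Gm16008 on the other strand, which had 0 counts, so reads there may be set aside as ambiguous, depending on the strand setting. Tnfrsf9 and Cd27 overlap Camta1 and Vamp1 on the other strand but share no exon bases with them.

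Positions and merged exon lengths came from GENCODE mouse release M21 (GRCm38), and promoter windows from RefSeq (GRCm38.p6). Groups were compared by the quasi-likelihood test of edgeR 4.0.16 in R 4.3.3, fitted to the 9 libraries without covariates, with TMM factors, the filterByExpr filter at 10 counts, Benjamini-Hochberg adjustment over all 7858 tested genes and a threshold of 0.05. Standard errors were derived from F and are approximate. TMM factors were lowest in anti-CTLA-4 replicate 2 (0.403) and next in anti-PD-1 replicate 2 (0.833), with 1.06 to 1.26 elsewhere, so a fitted change can differ in sign from the CPM means, which use no factors. The fits were also run on simulated counts with the same mean profile in all libraries and some genes raised under anti-CTLA-4. Those counts held no library like anti-CTLA-4 replicate 2, so they cannot show how the fits handle it. Alternatives were DESeq2 1.42.0, limma voom 3.58.1 with quality weights, RLE factors, library totals only, other filters, fits of 2 groups, the replicate number as a block and libraries left out. The members and lists were chosen with earlier results of these data known. The text names the members, all their ligands, the 3 most abundant tested genes and any called gene of each pathway list, context markers, and the 3 genes nearest each member in pattern (prior count of 2, mean of at least 5 CPM). Others were named after their values were seen.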

Additional observations from a re-analysis of the deposited data

How the results depend on the processing

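No member with a p passed the threshold in any comparison under the 18 alternatives run (17 for the test among the 3 groups), DESeq2 gave no p for Tnfrsf1b, and the lowest adjusted p of any member was 0.121. Of 270 fitted member changes, 235 kept their sign and 35 reversed. Tnfrsf9 stayed negative, Tnfrsf18 positive and Cd27 negative in every alternative for anti-CTLA-4 against Control and between the antibodies. For anti-CTLA-4 against Control, Tnfrsf4 became -0.30 with library totals only, -0.034 with no filter on low counts, -0.026 with at least 5 CPM in 3 libraries and -0.035 with only the 2 groups compared, and Tnfrsf1b became -0.51 with library totals only and -0.52 with voom. For anti-PD-1 against Control, Tnfrsf1b became 0.17 with DESeq2 and with RLE factors, Tnfrsf4 -0.092 with library totals only, and Tnfrsf9 0.0031 with voom. Between the antibodies, Tnfrsf4 became 0.84 with DESeq2 and RLE factors and 0.15 with voom, and Tnfrsf1b -0.10 with library totals only and -0.14 with voom. Without anti-CTLA-4 replicate 2 and anti-PD-1 replicate 2 together, Tnfrsf1b was -0.80 and Tnfrsf9 0.029 against Control for anti-CTLA-4 and anti-PD-1 in turn, and Tnfrsf4 0.31 and Tnfrsf1b -0.072 between the antibodies. The cause was not tested. With each library left out in turn, the ranges were -0.45 to 0.42 (Tnfrsf4) and -0.80 to 0.89 (Tnfrsf1b) for anti-CTLA-4 against Control. They were -0.26 to 0.56 (Tnfrsf4), -0.50 to 0.064 (Tnfrsf9), -0.72 to 0.82 (Tnfrsf18) and -0.69 to 0.35 (Tnfrsf1b) for anti-PD-1 against Control, and -0.57 to 0.27 (Tnfrsf4) and -0.72 to 1.17 (Tnfrsf1b) between the antibodies.

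RLE factors moved the median change of all tested genes by 0.56, 0.19 and 0.50 in the 3 comparisons, and library totals only by -0.35, -0.19 and -0.17. Counts of called genes among all tested depended on the setting. They ranged over the alternatives from 0 to 558 for anti-CTLA-4 against Control (29 as reported), 0 to 421 for anti-PD-1 against Control (6), 0 to 847 between the antibodies (65) and 3 to 201 among the 3 groups (120), with 0, 1, 6 and 3 without anti-CTLA-4 replicate 2. Chuk, called among the 3 groups, lost its call in 12 of 16 alternatives, among them RLE factors (adjusted p = 0.185), library totals only (0.76), voom (0.655), no filter (0.0506) and the replicate block (0.788).

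The replicate number, shared by the labels of the groups, did not pair the samples. None of the 9 pairs of libraries with the same number had a correlation of deviations over 0.1 (-0.034 to 0.018), and 2 of 9 libraries correlated best with their own number. With the replicate block, 0 members were called in each test, and 10, 1, 12 and 17 genes were called in the order above. All libraries but anti-CTLA-4 replicate 2 held at least 1050 counts of each tested member, and that library held 19 counts of Tnfrsf9 and 186 of Cd27. Tnfrsf25 and most ligands were at 0 to 3 counts in most libraries.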

Other observations

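Some signalling genes of the lists, named here after their values were seen, separated groups without passing the test. Of the 49 tested ligand, receptor and signalling genes, 1 was wholly higher and 4 wholly lower in CPM for anti-CTLA-4 against Control. The counts were 0 and 4 for anti-PD-1 against Control and 1 and 5 between the antibodies. In either direction, 11.9%, 10.8% and 9.76% of all tested genes were separated. Traf3 and Nfkbia are described here. Traf3, the adaptor that restrains the non-canonical NF-kappaB kinase, stood at 170, 43.4 and 28.9 CPM in Control, 17.3, 70.5 and 64.1 CPM with anti-PD-1, and 0.0656, 0.141 and 0.0306 CPM with anti-CTLA-4. All 3 anti-CTLA-4 libraries were below the other 6 (adjusted p = 0.432 against Control and 0.336 against anti-PD-1, edgeR's quasi-likelihood test), as were 10.4% and 6.95% of all tested genes in each comparison. Nfkbia, the inhibitor induced by NF-kappaB, held 388, 234 and 522 CPM in Control against 36.9, 136 and 103 CPM with anti-PD-1 (log2 fold change -1.73, SE 1.43, adjusted p = 1), without overlap, as 7.33% of all tested genes.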
